A study of Caenorhabditis elegans with 58 samples.

Results

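The comparison described here set the cross-progeny of young wild-type *C. elegans* mothers against the self-progeny of mothers of the same age. It comprised 8 of the 58 libraries of the series, chosen by title: 4 from a cross of 1DOA males and hermaphrodites (1 day old adults, cross-1DOA) and 4 from self-fertilised control mothers of that age (self-1DOA). All 8 were made from whole L4 larvae of wild-type genotype grown at 20 °C with no further treatment in their labels. The series asked how the age, temperature and mating of the parents, and the H3K4 methyltransferase SET-2, affected neuronal development and gene expression in their descendants. Other libraries served for comparison only. Groups of 4 libraries each were cross-progeny and self-progeny of old mothers (cross-4DOA and self-4DOA, wild type, 20 °C, mothers 4 days old) and wild-type animals labelled as returned to 20 °C from 25 °C (F1-back). The titles of cross-4DOA read 1DOA x 4DOA, and the paper describes old hermaphrodites mated to young males. The *set-2(zr1208)* mutant progeny of 1DOA mothers were used as a further reference. For single genes, levels are also given in wild-type larvae raised at 25 °C (F1-25C), in *set-2(zr1208)* progeny of 4DOA mothers and larvae raised at 25 °C, and in 22 libraries of the F3 and F5 generations of outcross lines: wild-type controls (WT-ctrl), wild-type descendants of *set-2(zr1208)* (WT-des) and mutant descendants (MUT-des), all labelled as crossed. The sex of the larvae, the strain of the fathers and the way cross-progeny were told from self-progeny are not stated for the RNA samples in the sources used here.

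*C. elegans* hermaphrodites make a limited store of sperm and fertilise their own oocytes, and mating adds sperm from a male. Self-progeny are nearly all XX hermaphrodites, whereas cross-progeny are a mixture of XX hermaphrodites and X0 males unless 1 sex is picked. The male program is set by *her-1*, which keeps *tra-2* and *tra-1* inactive, and is carried out in the tail, the gonad and the ray and cephalic neurons by regulators such as *mab-3* and *dmd-3*. In the crosses of parental age and heat that the study describes for scoring neurons, the fathers carried an integrated transgene, *oyIs14*, with GFP under the *sra-6* promoter, and progeny that showed GFP were taken as cross-progeny. In its outcrosses, the hermaphrodite parents carried *oyIs14* instead. As background, this transgene array is known to have been made with a wild-type *lin-15* fragment as the injection marker.

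Total counts were 6583378 to 17287415 in cross-1DOA and 8199862 to 22723332 in self-1DOA. No file repeated another. On the first principal component, which held 46.5% of the variance of the 8 libraries, cross-1DOA lay between 18.95 and 54.7 and self-1DOA between −60.2 and −2.22, with self-1DOA replicates 1 and 2 farthest out. Markers of intestine, muscle and neurons were present in every library, apart from the muscle marker *unc-15*. That gene and the hypodermis marker *elt-3* held 0 counts in all 8. The summed CPM (counts scaled to 1e+06 per library) of 4 intestinal markers was 1407 to 1643 in cross-1DOA and 1296 to 1529 in self-1DOA. The cuticle collagen *dpy-7*, which cycles with the molts and was singled out after its values were seen, read 24.2, 18.99, 0.564 and 27.5 CPM in cross-1DOA and 147, 46.2, 29.6 and 79.7 CPM in self-1DOA. All 4 cross-1DOA values were below all 4 self-1DOA values, although the difference did not pass the test (log2 fold change −2.06, SE 0.79, edgeR adjusted p = 0.123). The molting list behaved likewise in its median, at −0.55 over 26 genes with none called by edgeR or DESeq2 and 11 at an unadjusted p under 0.05. Whether the groups differed in stage, and whether that had a part in the results below, was not tested.

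The libraries also fell into sets that cut across the groups. Of 45410 entries in each file, 3837 carry the name of a transcript and not of a gene, and several of these were read in some groups of libraries and nearly absent from others. The entry NM_001025922, which RefSeq assigns to the thin filament gene *unc-87* and which was singled out after its values were seen, held at most 0.0440 CPM of the unscaled total in self-1DOA and 2.13 to 4.90 in cross-1DOA. It was equally low in self-4DOA (at most 0.0947) and at 0 in the F1-25C libraries, but reached 7.36 to 9.82 in the self-fertilised F1-back and 1.12 to 3.35 in *set-2* progeny of 1DOA mothers. The entry NM_061034, assigned to the ribosomal protein gene *rps-6*, shared this pattern, with 0.383 to 1.06 CPM in self-1DOA, 5.78 to 9.57 in cross-1DOA and 18.3 to 23.9 in F1-back. The entries named *unc-87* and *rps-6* themselves held 0 counts in all 58 libraries. The labels give no batch, so for entries of this kind crossing and the set of libraries cannot be told apart, and F1-back is used as a second, self-fertilised reference for the genes named. The *set-2* progeny of 1DOA mothers (*set-2* 1DOA), which also differ in genotype, are a further reference where stated.

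A small share of the entries passed both the adjusted p and the fold threshold between cross-progeny and self-progeny, which does not measure how much of the transcriptome differed. In whole larvae, fewer cells of a type and less RNA per cell cannot be told apart. Of 15306 entries tested, 356 were called (2.33%), a call being a gene with edgeR quasi-likelihood adjusted p below 0.05 whose fitted change exceeded 1 on the log2 scale in either direction. Of these, 215 were higher in cross-1DOA (1.40%) and 141 were lower (0.921%), and 3509 entries had an unadjusted p under 0.05. The median of all entries was −0.01 on the log2 scale. The 4 values of each group did not overlap for 323 of the 356, and for 18.5% of all entries tested. The count depended on the controls. It was 148 without self-1DOA replicate 1, of which 140 were among the 356 in the same direction, and 153 without self-1DOA replicate 2, of which 144 were. With self-1DOA replicates 3 and 4 alone it was 42. Entries named by transcript supplied 74 calls of 1512 tested (4.89%), against 282 of 13794 entries named by gene (2.04%), of which 161 were higher and 121 lower. When F1-back replaced self-1DOA as the reference, 106 entries were called. They included 62 of the 282 gene-named calls in the same direction (22%) and 3 of the 74 transcript-named calls (4.05%), and a further 22 and 27 of those calls had the opposite sign. With *set-2* 1DOA as the reference, 760 entries were called. They included 97 of the 282 gene-named calls in the same direction (34.4%) and 19 of the 74 transcript-named calls (25.7%). Both references were chosen after the data were seen.

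**Figure D1:**
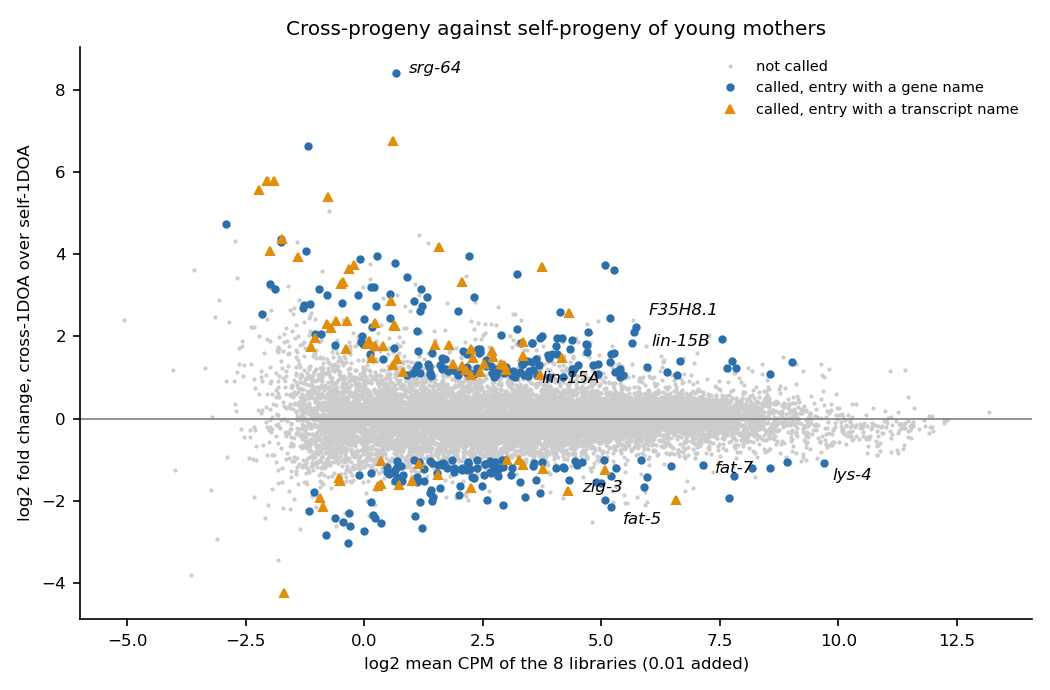
The plot gives, for each of the 15306 entries tested, the log2 mean CPM of the 8 libraries (0.01 added) on the horizontal axis and the log2 fold change of cross-1DOA over self-1DOA on the vertical axis; coloured symbols are the 356 calls. The 74 called entries with a transcript name (triangles) sit mostly above 0, where 54 of them are higher in cross-1DOA.

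The 4 gene-named entries with the smallest adjusted p were *lin-15B*, *lin-15A*, *F35H8.1* and *srg-64*, which lay at a pair of places in the genome, at *lin-15* and next to *sra-6*. The *lin-15* locus encodes LIN-15A and LIN-15B, nuclear proteins of the synthetic multivulva pathway that keep vulval induction in check, and LIN-15B also represses germline genes in the soma. *lin-15B* read 95.0, 91.2, 78.5 and 73.1 CPM in cross-1DOA and 22.1, 15.7, 21.5 and 18.7 CPM in self-1DOA. Every cross-1DOA library was thus above 73 CPM and every self-1DOA library below 23 CPM, a log2 fold change of 2.11 (SE 0.22, edgeR adjusted p = 1.35e-07). *lin-15A* read 21.4, 23.6, 21.6 and 21.4 CPM in cross-1DOA and 10.1, 6.01, 8.78 and 7.05 CPM in self-1DOA. The groups again did not overlap, and the log2 fold change was 1.46 (SE 0.15, edgeR adjusted p = 1.46e-07). The next gene, *srg-64*, which encodes a chemoreceptor of the serpentine class gamma, had no count in any of the 4 self-1DOA libraries and 1.74, 2.12, 4.09 and 4.72 CPM in cross-1DOA. Against a floor of 3 counts over the self-1DOA group it was at least 55.0-fold higher (edgeR adjusted p = 7.09e-07).

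Beside *sra-6*, a chemoreceptor gene of the PVQ, ASH and ASI neurons, the 2 genes that follow it on 1 side were higher. *F35H8.1* read 70.6, 78.0, 95.7 and 106 CPM in cross-1DOA and 17.4, 18.03, 22.4 and 17.4 CPM in self-1DOA. The lowest cross-1DOA library was more than 3 times the highest self-1DOA library, and the log2 fold change was 2.22 (SE 0.25, edgeR adjusted p = 4.28e-07). *F35H8.12*, which was singled out after its values were seen, had no count in self-1DOA and 0.475, 0.870, 0.282 and 1.81 CPM in cross-1DOA. It was at least 14.9-fold higher against the floor of 3 counts over the group (edgeR adjusted p = 0.00243). *sra-6* itself was too low to test, at 0.157 to 0.423 CPM in cross-1DOA and 0 to 0.390 CPM in self-1DOA, so the groups overlapped.

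None of the other neighbours tested was called. Among the neighbours of *lin-15A* by RefSeq order (WBcel235), *ZK662.2*, *nhr-48*, *ZK662.6*, *wrt-4* and *bus-17* were tested and not called, with log2 fold changes from −0.55 to 0.13, and *ZK662.5*, *nhr-255* and *srxa-9* were too low to test. Beyond *F35H8.1*, *F35H8.2*, *zfp-2* and *F35H8.4* were not called either, at −0.14, 0.25 and −0.24. On the other side of *sra-6*, *sra-3*, *sra-4*, *sra-7*, *sra-8* and *sra-9* were too low to test.

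**Figure D2:**
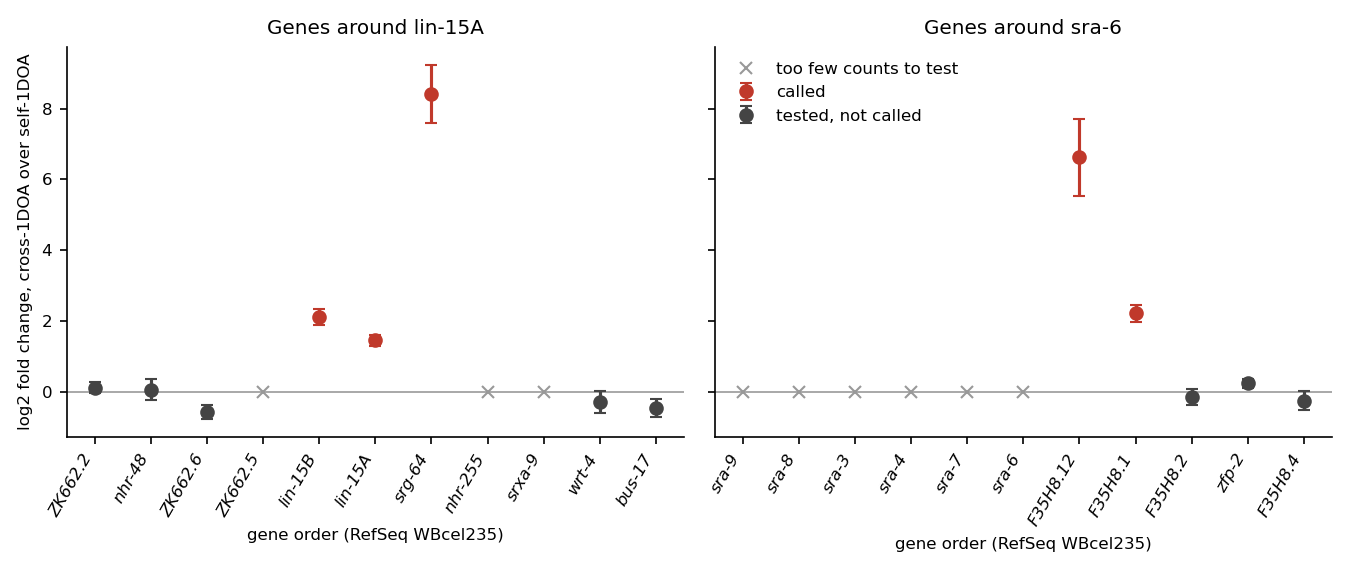
Log2 fold change of cross-1DOA over self-1DOA (points, with SE as bars) for 11 genes in RefSeq order around *lin-15A* (left) and around *sra-6* (right); crosses mark genes with too few counts to test. The calls are the adjoining *lin-15B*, *lin-15A* and *srg-64* on the left, and *F35H8.12* and *F35H8.1* on the right.

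Within the parental experiment, the same 5 genes were high in both crosses and in no other group. Expressed as CPM of the unscaled library total, *lin-15B* ran from 72.6 to 96.9 in the 8 libraries of cross-1DOA and cross-4DOA and from 11.8 to 37.7 in the 28 other libraries of the parental experiment. *lin-15A* ran from 19.5 to 25.1 against 5.98 to 13.7, and *F35H8.1* from 65.5 to 111 against 7.58 to 27.2. *srg-64* held 1.74 to 4.91 against at most 0.223, and *F35H8.12* held 0.304 to 1.88 against at most 0.0919. No value of a cross library overlapped those of these 28, F1-back and *set-2* groups included. In old mothers the log2 fold changes were 1.94 for *lin-15B*, 1.29 for *lin-15A* and 2.50 for *F35H8.1* (edgeR adjusted p = 5.86e-07, 1.47e-06 and 4.88e-08). With F1-back as the reference they were 2.01, 1.60 and 2.65 in young mothers, and *srg-64* and *F35H8.12* were called as well. The 22 libraries of the outcross lines reached a median of 90.4 for *lin-15B* and 167 for *F35H8.1*, and 20 of the 22 were above the highest of the 28 libraries for each of these genes. By the paper's methods, these lines descend from hermaphrodites that carried *oyIs14*, and were self-fertilised from the first generation after the cross. Both loci are those of the transgene that these hermaphrodites and the fathers of the neuron-scoring crosses carried, by the background given above. Whether the larvae sequenced here carried it was not tested.

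**Figure D3:**
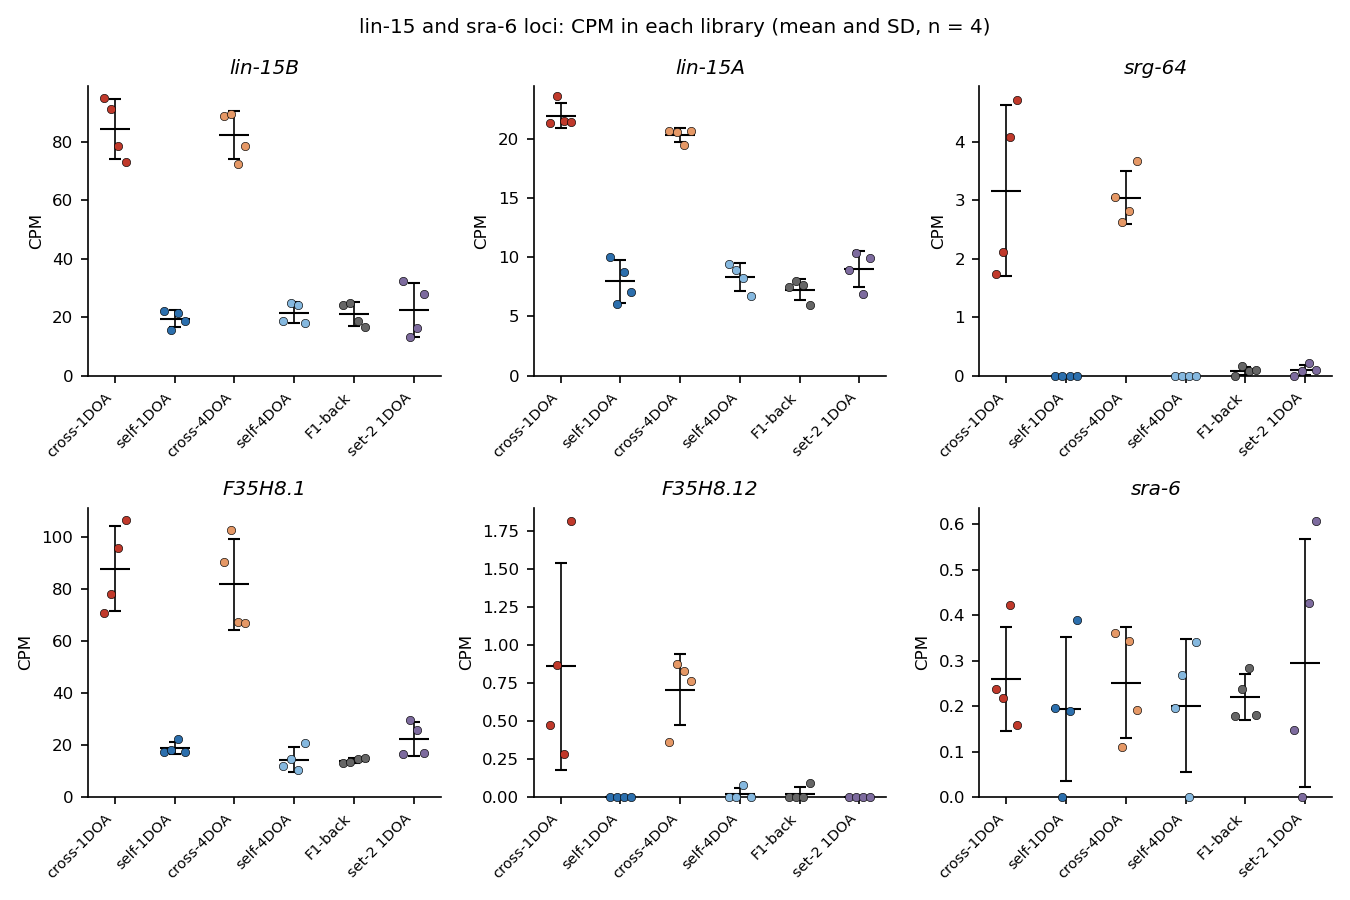
CPM of *lin-15B*, *lin-15A*, *srg-64*, *F35H8.1*, *F35H8.12* and *sra-6* in each library of 6 groups (points, replicates 1 to 4 from left to right), with the mean and SD of 4 libraries. In the first 5 panels all cross-1DOA and cross-4DOA libraries lie above all others shown; *sra-6* overlaps in every group.

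Male marker genes were near the detection limit in cross-progeny and self-progeny alike. All 13 male markers with an entry were under 2 CPM in each of the 8 libraries, and their summed CPM was 4.02 to 5.78 in cross-1DOA and 4.34 to 5.08 in self-1DOA. These ranges overlapped. Of the 5 markers with enough counts to test, none was called. *lov-1*, a polycystin of male sensory neurons, had 10 counts over the 4 cross-1DOA libraries and 5 over self-1DOA, and its partner *pkd-2* had 11 and 8. *dmd-3*, which drives the remodelling of the male tail tip, had 1 count in each group, in 1 of its 2 entries. *mab-3*, a DM-domain regulator of male development, read 0.871, 0.707, 0.141 and 0.315 CPM in cross-1DOA and 1.27, 0.613, 1.04 and 0.995 CPM in self-1DOA. The groups overlapped and the mean was the lower one in cross-1DOA (log2 fold change −0.84, SE 0.54, edgeR adjusted p = 0.357). *her-1*, *mab-23*, *tra-1* and *tra-2* stood at 0 in the entry read here in all 8 libraries, but each has more than 1 entry in the files. Summed over its 2 entries, *her-1* was still at 0 in all 8. *mab-23*, summed likewise, reached at most 0.158 CPM in cross-1DOA and 0.189 CPM in self-1DOA. The muscle marker *unc-15*, with 1 entry, also held 0 counts in all 8, so a value of 0 cannot be read as absence.

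The wider lists gave the same picture of small differences. Of 15 genes of male somatic differentiation, 7 of the male tail and seminal structures and 10 of male sensory neurons tested, 0 were called by edgeR and 0 by DESeq2, with 2, 1 and 0 at an unadjusted p under 0.05. Their median log2 fold changes were −0.05, −0.18 and 0.10, beside −0.01 over all entries. The 14 sex-determination genes had a median of 0.06 and the 10 dosage compensation genes one of 0.03, again with 0 calls by either tool and with 2 and 0 at an unadjusted p under 0.05. Hermaphrodite structures were present in both groups. The summed CPM of 5 vulval markers was 42.8 to 49.2 in cross-1DOA and 44.8 to 58.8 in self-1DOA, and 20 genes of the vulva and uterus had a median of −0.29 with 0 calls by either tool and 2 at an unadjusted p under 0.05. On the X chromosome, which is present once in males, 2.29% of 2056 entries were called and the median was −0.03, beside 2.28% of 12647 and a median of −0.003 on the autosomes. As dosage compensation evens out X expression between the sexes, these values cannot tell whether males were present. Chromosome V held the largest share among the chromosomes, 3.45% of 2960. A small share of males, or males that do not yet express these genes at the stage taken, was not detectable at this depth.

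Of the germline lists, those of oogenesis and meiosis had positive medians, with 1 call among them. The 32 oocyte and eggshell genes had a median log2 fold change of 0.40, and 30 were positive, with 9 at an unadjusted p under 0.05. The single call was *cgh-1*, a germline RNA helicase of the DDX6 family. It read 771, 780, 775 and 708 CPM in cross-1DOA and 218, 143, 431 and 372 CPM in self-1DOA, so that every cross-1DOA library was higher (log2 fold change 1.38, SE 0.41, edgeR adjusted p = 0.0447). That call was lost without any 1 of the 4 cross-1DOA libraries or without self-1DOA replicate 1, 2 or 4 (adjusted p 0.0594 to 0.175), and with F1-back as the reference the log2 fold change was 0.48. Genes of the meiotic axis and synapsis (18 tested, 17 positive) and of germ cell identity and P granules (18 tested, 17 positive) had medians of 0.31 and 0.34, with 0 calls by either tool and 9 each at an unadjusted p under 0.05. Against F1-back these medians were 0.07 for both lists, and that of the oocyte list was 0.50. In old mothers the oocyte list went the other way, with a median of −0.30, 9 of 32 positive and 2 called lower.

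Sperm genes, which L4 hermaphrodites also express, were slightly lower in median. Of 30 major sperm protein genes, whose near-identical copies can share reads, 26 were negative with a median of −0.15 and 1 was called. *msp-113* read 1.90, 1.96, 1.69 and 2.20 CPM in cross-1DOA and 4.20, 7.73, 6.42 and 6.19 CPM in self-1DOA (log2 fold change −1.64, SE 0.36, edgeR adjusted p = 0.00888). It stood at 0.907 to 2.13 CPM in F1-back, and its sign was reversed against that group (0.37). The 43 other sperm genes had a median of −0.19 with 0 calls by either tool and 5 at an unadjusted p under 0.05, and both medians turned positive against F1-back, at 0.47 and 0.23.

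The yolk protein genes had opposite signs at the 2 mother ages, although the interaction was called for 1 of the 5 only. All 5 vitellogenins tested were positive in young mothers, with a median of 1.18, although none passed the test by edgeR and 1 did by DESeq2 (3 at an unadjusted p under 0.05). *vit-6*, singled out after its values were seen, read 2716, 2287, 4709 and 5341 CPM in cross-1DOA and 828, 1217, 3014 and 1592 CPM in self-1DOA. The groups overlapped through self-1DOA replicate 3 (log2 fold change 1.18, SE 0.49, edgeR adjusted p = 0.153). In old mothers all 5 were negative, with a median of −1.49, as self-4DOA read 6838 to 11776 CPM for *vit-6* and cross-4DOA 2116 to 6176 CPM. The cross-progeny of young and of old mothers thus covered overlapping ranges, whereas the self-progeny of the same ages did not overlap. As vitellogenins are made in the intestine of adults, reads at L4 also follow how close a library is to adulthood, which was not tested.

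Among the genes that fell in cross-progeny were a pair of fatty acid desaturases. *fat-5*, which desaturates palmitic acid, read 12.1, 25.5, 3.95 and 10.9 CPM in cross-1DOA and 88.0, 81.4, 32.7 and 39.3 CPM in self-1DOA. Even the highest cross-1DOA library was below the lowest self-1DOA library (log2 fold change −2.16, SE 0.35, edgeR adjusted p = 4.26e-04). *fat-7*, a stearoyl-CoA desaturase, read 56.1, 105, 81.4 and 113 CPM in cross-1DOA and 230, 205, 153 and 188 CPM in self-1DOA. Its groups did not overlap either, and the log2 fold change was −1.12 (SE 0.18, edgeR adjusted p = 3.05e-04), or −0.98 without cross-1DOA replicate 1, which put it short of the fold threshold with an adjusted p of 0.00171. The entry read here for its relative *fat-6* was at 0 in all these libraries, but *fat-6* has more than 1 entry, so a value of 0 cannot be read as absence. Whether reads were shared between *fat-6* and *fat-7* was not tested. Against F1-back, *fat-5* remained called at −1.85 (edgeR adjusted p = 0.00515) and *fat-7* was at −0.70 (edgeR adjusted p = 0.0448), short of the fold threshold. Against *set-2* 1DOA, *fat-5* was called at −1.56 and *fat-7* was at −0.78, again short of the fold threshold. A fit of the 8 libraries alone left *fat-5* at −2.15 without a call (edgeR adjusted p = 0.0664). The polyunsaturated fatty acid enzymes *fat-1* and *fat-2*, looked at after these values were seen, were not called, at −0.12 and −0.32.

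Genes of innate defence were called in both directions, and those that fell included lysozymes. *lys-4*, a lysozyme, read 345, 601, 503 and 663 CPM in cross-1DOA and 1158, 1207, 1090 and 1050.3 CPM in self-1DOA. The groups lay far apart (log2 fold change −1.09, SE 0.18, edgeR adjusted p = 4.45e-04), with −0.96 and an adjusted p of 0.00282 without cross-1DOA replicate 1. The lysozyme *lys-5* (−1.42, SE 0.30, edgeR adjusted p = 0.00598) and the saposin-like *spp-23* (−1.40, SE 0.23, edgeR adjusted p = 4.88e-04) were called lower as well. Against F1-back none of these 3 was called, at −0.87, −0.88 and −0.77 (edgeR adjusted p = 0.0099, 0.167 and 0.0992), and *lys-5* also missed the call in a fit of the 8 libraries alone (edgeR adjusted p = 0.0509). Against *set-2* 1DOA all 3 were called, at −1.45, −1.74 and −1.08. In the list of 194 innate immunity genes 7 fell and 8 rose, with a median of −0.04, beside 0.921% and 1.40% of all entries. The intestinal metallothionein *mtl-2* read 95.0, 44.7, 103.4 and 102 CPM in cross-1DOA and 249, 282, 382 and 409 CPM in self-1DOA (log2 fold change −1.94, SE 0.44, edgeR adjusted p = 0.0124). F1-back lay at 43.9 to 76.6 CPM, and the sign was reversed against it (0.48). Against *set-2* 1DOA, *mtl-2* was called lower at −1.63 (edgeR adjusted p = 0.0142). *cpr-5*, a gut cathepsin, was called lower at −1.07 (SE 0.28, edgeR adjusted p = 0.0257), a call lost without any 1 of cross-1DOA replicates 1, 2 and 3 and self-1DOA replicates 1 and 2 (adjusted p 0.0519 to 0.139), with the 8 libraries alone (0.0731) or against F1-back (0.433).

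Other genes that fell have less known roles. *Y34F4.2* read 4.20, 7.29, 3.81 and 4.17 CPM in cross-1DOA and 13.2, 14.6, 14.7 and 15.7 CPM in self-1DOA. It had the smallest adjusted p of the gene-named entries that fell (log2 fold change −1.56, SE 0.22, edgeR adjusted p = 5.07e-05) and was called under each of the 20 alternatives run for it, as was *Y82E9BR.25* (−1.98, SE 0.32, edgeR adjusted p = 3.14e-04). The F-box genes *fbxa-141*, *fbxa-54* and *fbxa-23* fell by 1.91, 1.19 and 2.51 on the log2 scale (edgeR adjusted p = 0.00179, 0.00812 and 0.00587). F-box proteins recruit targets to ubiquitin ligases, and in the list of 212 F-box and MATH/BTB genes 8 fell and 5 rose at a median of −0.04, beside 0.921% and 1.40% of all entries. Also among the first 15 were *ZC190.5*, *F46C3.2* and *Y65B4A.11*, at −1.32, −1.23 and −1.11 (edgeR adjusted p = 5.26e-04, 0.00224 and 0.00202), and the kelch-repeat gene *kel-8* at −1.02 (edgeR adjusted p = 0.00179). The last missed the fold threshold without cross-1DOA replicate 4 or without self-1DOA replicate 1 or 2 (−0.94, −0.86 and −0.99). *F32B5.10* and the piRNA loci 21ur-2624 and 21ur-6598 completed them, at −2.38, −2.43 and −1.82 (edgeR adjusted p = 8.42e-04, 0.00175 and 0.00202). At 21ur-6598, F1-back was as low as the crosses, with 6.53 to 8.26 CPM against 3.54 to 10.6 CPM in cross-1DOA. The libraries were not made for small RNAs, so reads at a piRNA locus may come from a longer transcript that covers it. Of the genes in this paragraph, those not called against F1-back were *Y65B4A.11* (−0.50), *kel-8* (−0.65), *fbxa-23* (−1.91), *F32B5.10* (−1.36), *ZC190.5* (−0.87), 21ur-2624 (−1.57) and 21ur-6598 (−0.35).

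A pair of secreted immunoglobulin-domain proteins that hold axons of the ventral nerve cord in place, PVQ included, moved in opposite directions. *zig-3* read 10.7, 9.79, 9.16 and 12.3 CPM in cross-1DOA and 21.1, 28.6, 30.97 and 37.5 CPM in self-1DOA. All cross-1DOA libraries were below all self-1DOA libraries (log2 fold change −1.49, SE 0.26, edgeR adjusted p = 9.13e-04), and the gene remained called against F1-back at −1.59 (edgeR adjusted p = 0.00105). Against *set-2* 1DOA it was at −0.95 (edgeR adjusted p = 0.0143), short of the fold threshold. *zig-4* read 8.24, 5.88, 10.01 and 5.28 CPM in cross-1DOA and 1.95, 1.84, 4.81 and 3.55 CPM in self-1DOA. It was called higher (log2 fold change 1.23, SE 0.36, edgeR adjusted p = 0.0412), and against F1-back at 1.57 (edgeR adjusted p = 0.025). That call was lost without cross-1DOA replicate 1 or 3 or self-1DOA replicate 1, 2 or 4 (adjusted p 0.0633 to 0.154). Against *set-2* 1DOA, *zig-4* was at 0.93 without a call (edgeR adjusted p = 0.0535). Of 10 *zig* genes tested, 2 fell (*zig-3* and *zig-10*, the latter at −1.19 with edgeR adjusted p = 0.0146, and −0.66 without a call against F1-back) and 1 rose. The shares of all entries were 0.921% lower and 1.40% higher. *zig-4*, *zig-10* and the family count were looked at after the value of *zig-3* was seen.

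The genes that rose included some antimicrobial peptides of the epidermis, a family that answers to fungal infection and wounding. *nlp-29*, singled out with *nlp-31*, *cnc-2* and *cnc-4* after their values were seen, read 139, 49.6, 57.4 and 65.7 CPM in cross-1DOA and 17.2, 18.4, 34.6 and 17.8 CPM in self-1DOA. The groups did not overlap (log2 fold change 1.83, SE 0.52, edgeR adjusted p = 0.0398). *nlp-25* read 56.2, 49.1, 66.8 and 48.1 CPM in cross-1DOA and 17.3, 25.3, 18.98 and 13.4 CPM in self-1DOA (log2 fold change 1.56, SE 0.36, edgeR adjusted p = 0.0124). *nlp-28*, *nlp-32* and *nlp-34* rose by 3.95, 3.21 and 1.27 on the log2 scale (edgeR adjusted p = 0.0265, 0.0348 and 0.028), and *cnc-4* by 1.61 (edgeR adjusted p = 0.042), while *nlp-31* and *cnc-2* were at 1.16 and 2.55 without passing the test (edgeR adjusted p = 0.0846 and 0.0806). Of their relatives, also looked at afterwards, *nlp-27* was at 1.57, *nlp-30* at 0.59 and *nlp-33* at −0.40, none of them called (edgeR adjusted p = 0.123, 0.197 and 0.309). With the insulin-like *ins-4* (1.32, edgeR adjusted p = 0.0378; also singled out), 6 of 92 neuropeptide and insulin genes were called higher and 0 lower by edgeR (7 and 0 by DESeq2, and 23 had an unadjusted p under 0.05). Their median was −0.01, beside calls for 1.40% and 0.921% of all entries. These calls were near the threshold. *nlp-25* lost its call without self-1DOA replicate 1 (adjusted p = 0.0548). *nlp-28*, *nlp-29*, *nlp-32*, *nlp-34* and *cnc-4* each lost theirs in 4 or more of the 8 fits that left out 1 library, with adjusted p from 0.0514 to 0.189, and among the libraries cross-1DOA replicate 1 and self-1DOA replicates 1 and 4 ended the call for all of these 5. Against F1-back, *nlp-25*, *nlp-29*, *nlp-32* and *nlp-34* remained called, while *nlp-28* and *cnc-4* were not (edgeR adjusted p = 0.122 and 0.112). Against *set-2* 1DOA, *nlp-25* and *nlp-32* remained called, while *nlp-28*, *nlp-29*, *nlp-34* and *cnc-4* were not. Several of these genes lie in clusters of similar copies, between which reads can be shared.

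Of 154 detoxification genes tested, 10 were called higher and 1 lower, with a median of 0.20, beside 1.40% and 0.921% of all entries. The lower one was *mtl-2*, which binds metals. The cytochrome P450 gene *cyp-34A8* read 33.9, 37.7, 28.2 and 29.3 CPM in cross-1DOA and 9.87, 11.9, 15.4 and 15.02 CPM in self-1DOA, with no overlap (log2 fold change 1.30, SE 0.22, edgeR adjusted p = 7.51e-04). *cyp-14A1*, *cyp-32A1* and *cyp-34A7* rose by 1.66, 1.70 and 4.07 on the log2 scale (edgeR adjusted p = 0.00211, 0.0116 and 0.00343). *cyp-32A1* was at an adjusted p of 0.0568 without self-1DOA replicate 1. *cyp-34A7* was at or below 1.03 CPM throughout. Against F1-back *cyp-34A8*, *cyp-14A1* and *cyp-32A1* remained called, at 1.13, 1.68 and 1.60, and *cyp-34A7* was not (1.90, edgeR adjusted p = 0.132). Against *set-2* 1DOA, *cyp-34A8*, *cyp-14A1* and *cyp-32A1* were at 0.61, 0.17 and 0.76 without a call, and *cyp-34A7* was called at 2.65.

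Of 150 cuticle collagens tested, edgeR called 9 higher and 0 lower, with 70 at an unadjusted p under 0.05, and DESeq2 called 12 higher and 3 lower. The median was −0.01, the shares of all entries were 1.40% and 0.921%, and against F1-back edgeR called 0 in either direction. The 4 of these 9 calls that are named here rested on very few reads. *col-2* read 0.475, 0.653, 0.564 and 0.551 CPM in cross-1DOA and 0, 0, 0 and 0.0433 CPM in self-1DOA (log2 fold change 4.36, SE 0.78, edgeR adjusted p = 0.00119). *col-50*, *col-51* and *col-85* were of the same kind, with at most 1.82 CPM in any of the 8 libraries. All 4 were at 0.28 CPM or above in F1-back, and each had the opposite sign against that group without passing the test (−0.88 to −0.40).

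Other genes that rose were *grl-30*, which encodes a hedgehog-related ground-like protein, *best-24*, a bestrophin channel gene, and the intestinal intermediate filament gene *ifc-2*. *grl-30* read 5.54, 1.58, 5.22 and 3.31 CPM in cross-1DOA and 0.391, 0.368, 0.755 and 0.822 CPM in self-1DOA. The groups did not overlap (log2 fold change 2.61, SE 0.40, edgeR adjusted p = 1.64e-04), and the call held under each of the 19 alternatives run for it, as did that of *T20D4.7* (3.14, SE 0.56, edgeR adjusted p = 0.00124). *best-24* rose by 1.33 (SE 0.24, edgeR adjusted p = 0.00119) and was at 0.86 without a call against F1-back. *T24B8.5*, a target of the p38 immune pathway, rose by 1.43 (SE 0.26, edgeR adjusted p = 0.00147) but stood at 5.83 to 8.35 CPM in F1-back, beside 6.37 to 10.3 CPM in cross-1DOA. *ifc-2* read 2.61, 1.58, 2.54 and 2.28 CPM in cross-1DOA and 0.195, 0, 0.189 and 0.130 CPM in self-1DOA (log2 fold change 3.96, SE 0.66, edgeR adjusted p = 5.26e-04). It also shared the pattern of the library sets, at 1.203 to 2.93 CPM in F1-back, as did *F25H2.16* (3.44, SE 0.40, edgeR adjusted p = 8.44e-07), which F1-back exceeded at 5.04 to 8.43 CPM. *F42G4.6* was likewise higher than self-1DOA in both cross-1DOA (2.75, SE 0.50, edgeR adjusted p = 0.00146) and F1-back.

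**Figure D4:**
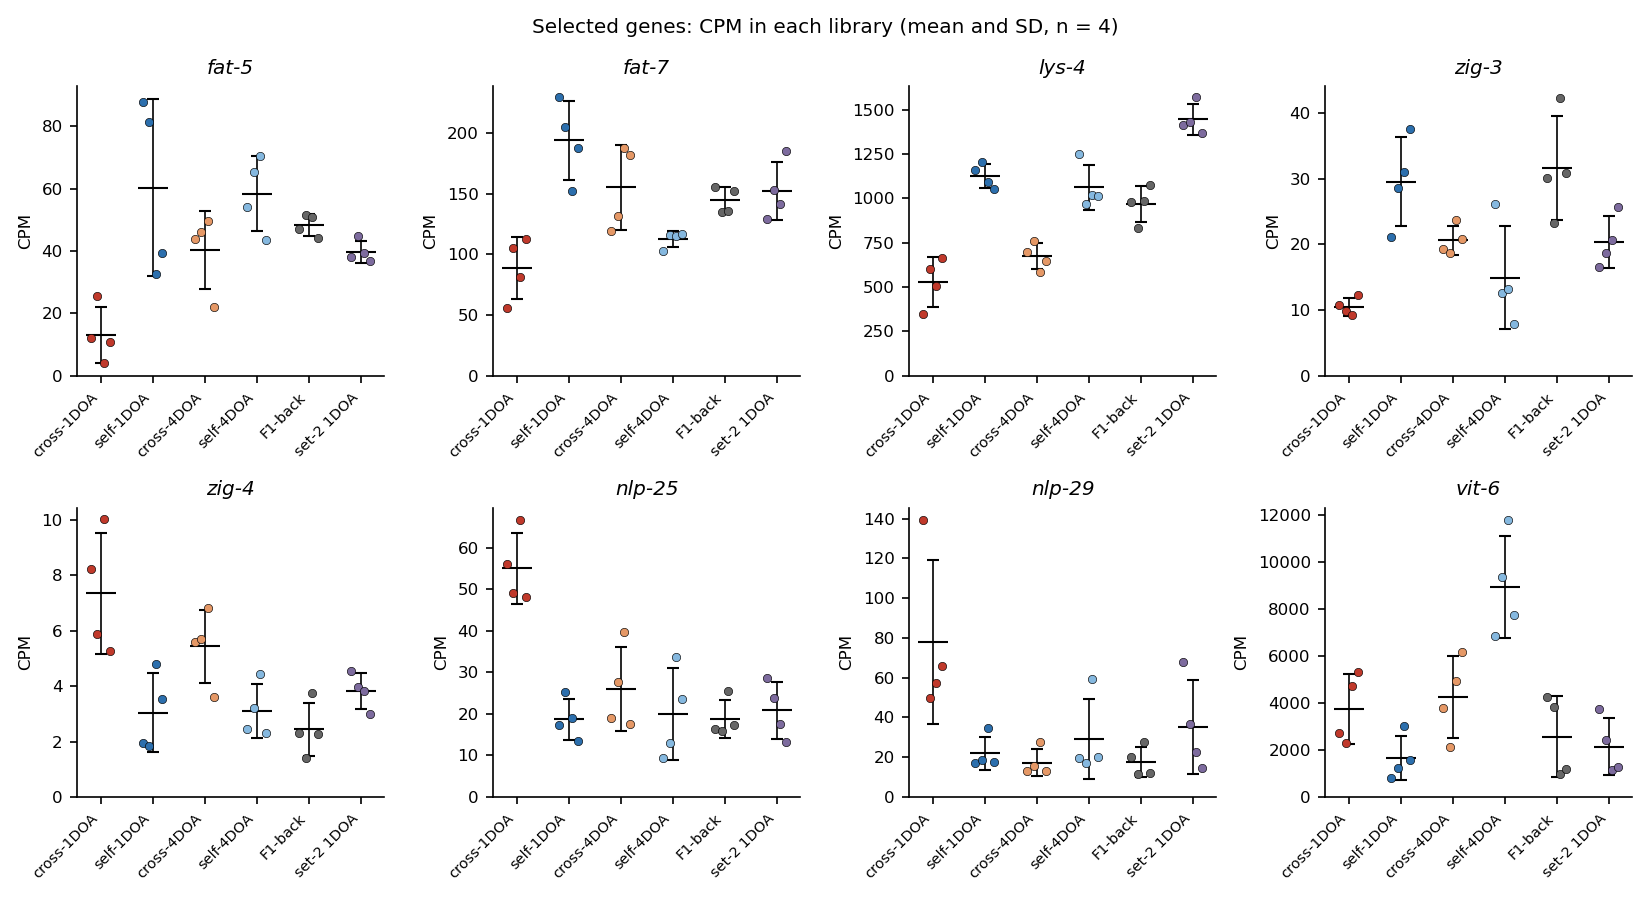
CPM of 8 genes in each library of 6 groups (points, replicates 1 to 4 from left to right), with the mean and SD of 4 libraries. *fat-5*, *fat-7*, *lys-4* and *zig-3* are lower and *zig-4*, *nlp-25* and *nlp-29* higher in cross-1DOA than in self-1DOA with no overlap, while *vit-6* overlaps and is highest in self-4DOA.

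Of the lists that mark tissues and housekeeping functions, most gave 0 calls by edgeR. Of 15 intestine markers, 1 was called higher (*ifc-2*) and 2 lower (*cpr-5* and *mtl-2*), beside 1.40% and 0.921% of all entries, and their median was −0.10. The 7 genes of hypodermis and seam had a median of −0.51 with 5 negative, 0 calls by either tool and 3 at an unadjusted p under 0.05. Ribosomal protein genes (71 tested), pan-neuronal genes (13), muscle markers (9) and heat shock genes (46) had 0 calls by edgeR, and DESeq2 called 1 heat shock gene and none of the others. At an unadjusted p under 0.05 there were 15, 0, 0 and 16, and the medians were −0.20, 0.11, −0.14 and 0.16. Most ribosomal protein genes (65 of 71) and muscle markers (8 of 9) were negative. The 14 genes of the H3K4 methylation machinery had a median of 0.09 with 0 calls by either tool and 5 at an unadjusted p under 0.05. Of 29 histone genes tested, only *his-3* was called, lower (−1.04, SE 0.30, edgeR adjusted p = 0.042), beside 0.921% of all entries called lower. That call was lost in 5 of the 8 fits that left out 1 library, those without cross-1DOA replicates 2, 3 and 4 and self-1DOA replicates 1 and 2 (adjusted p 0.0638 to 0.211).

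**Figure D5:**
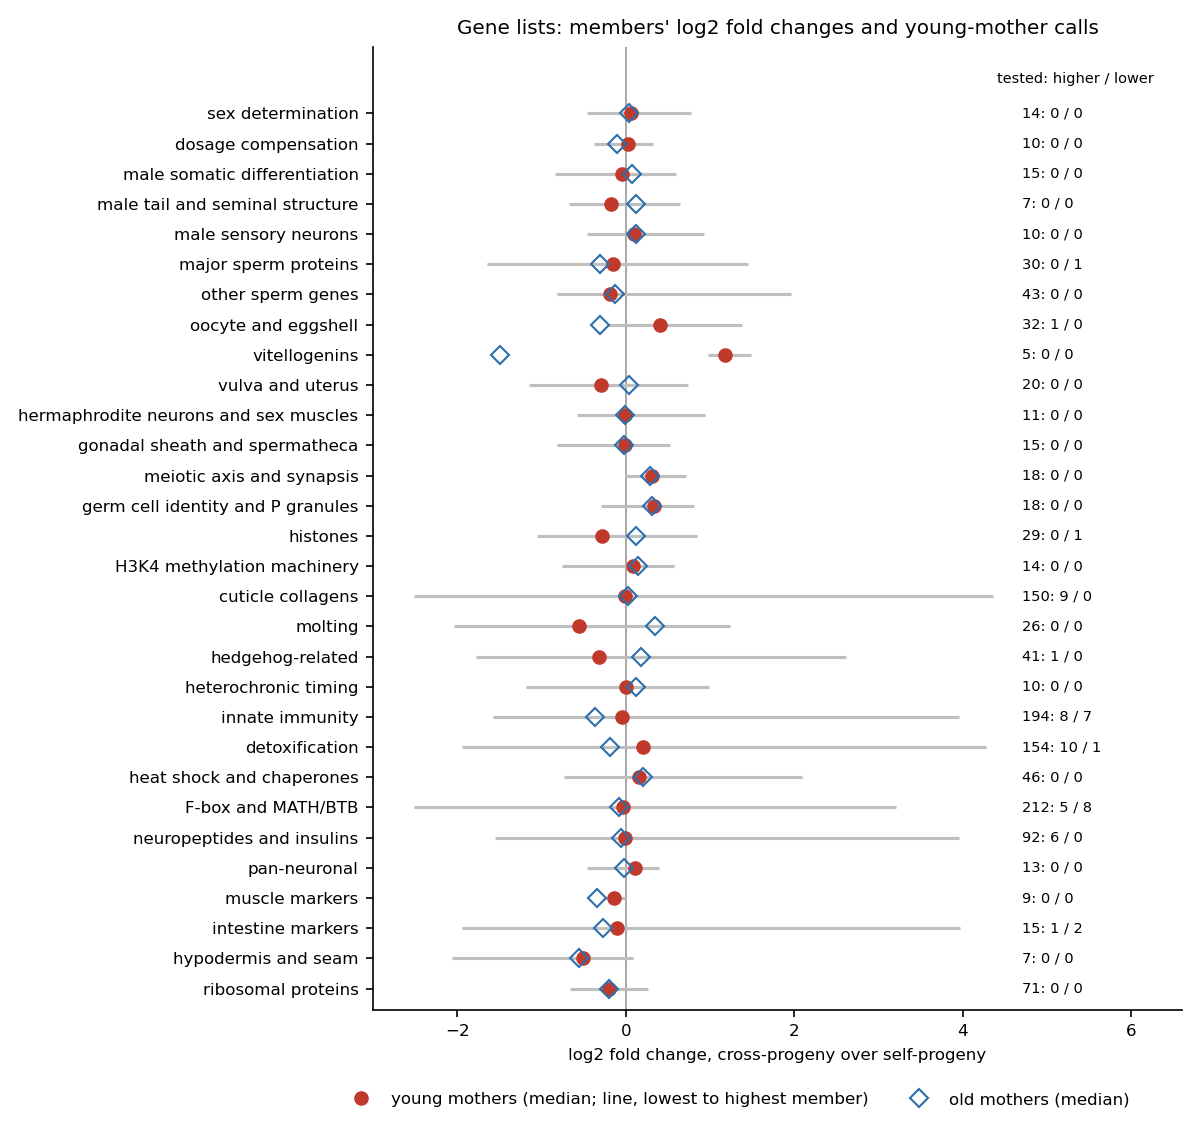
For 30 gene lists, the median log2 fold change of cross-progeny over self-progeny in young mothers (filled circles, with a line from the lowest to the highest member) and in old mothers (open diamonds), and at the right the members tested and the calls higher and lower in young mothers. The male lists lie close to 0 with no call, and the vitellogenins have medians of 1.18 and −1.49 at the 2 mother ages.

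The corresponding contrast in the progeny of old mothers shares no library with that in young mothers. As its fathers were young and its mothers old, crossing and younger sperm cannot be told apart in it. The interaction below carries the same limit. The old-mother contrast gave 450 calls (2.94%), 161 higher (1.05%) and 289 lower (1.89%). Of these, 116 were also called in young mothers. The direction was the same for 110 of them, 62 higher and 48 lower, which is 30.9% of the young-mother calls and 24.4% of the old-mother calls. Both self groups were low and both crosses higher for NM_001025922 and NM_061034. For entries of this kind, agreement between the ages cannot tell crossing from the set of libraries. Without transcript-named entries, the old-mother contrast gave 312 calls, 92 higher and 220 lower. Among the genes named above, those called in the same direction at both ages were the 5 beside *lin-15* and *sra-6*, *ifc-2*, *F25H2.16*, *col-2*, *col-50*, *col-51*, *col-85*, *msp-113*, *cpr-5*, *lys-5*, *ZC190.5*, *F32B5.10* and 21ur-6598. Of these, *F25H2.16*, *col-2*, *col-50*, *col-51*, *col-85* and *msp-113* had the opposite sign in young mothers against F1-back. The 6 entries called in opposite directions were all higher in young cross-progeny and lower in old, and 5 were named by gene: *ugt-11*, *ugt-13*, *oac-20*, *C31B8.8* and *C45B2.3*. The UDP-glucuronosyl transferase gene *ugt-13*, singled out with them, read 19.1, 13.7, 11.6 and 28.7 CPM in cross-1DOA and 7.72, 7.48, 5.95 and 8.27 CPM in self-1DOA. In old mothers it read 7.57 to 10.3 CPM in the crosses and 19.7 to 36.2 CPM in self-progeny, so the order of the groups was turned round (log2 fold changes 1.31 and −1.79, edgeR adjusted p = 0.0374 and 0.00293).

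The difference between the contrasts was tested directly by an interaction term, which called 89 entries (0.581%), 82 of them with a more positive effect of crossing in young mothers (0.536%) and 7 with a more negative one (0.0457%). Of the 356 young-mother calls, 33 were among them, but both tests use the cross-1DOA and self-1DOA libraries. This count was unstable. Leaving out cross-1DOA replicate 3 or 4 gave 34 and 13, cross-4DOA replicate 1, 2 or 3 gave 28, 10 and 20, and self-1DOA replicate 1, 2 or 4 gave 11, 47 and 8. Leaving out self-4DOA replicates 1 to 4 in turn gave 204, 49, 12 and 45. Of the genes named above, *fat-7*, *zig-3* and *K01C8.1* kept their call in all 16 of these fits. *fat-7* fell by 1.12 in young cross-progeny and was at 0.46 in old (interaction −1.59, SE 0.25, edgeR adjusted p = 0.00594). *zig-3* fell by 1.49 in young cross-progeny and was at 0.47 in old (interaction −1.97, SE 0.37, edgeR adjusted p = 0.0163). *K01C8.1* rose by 1.06 (SE 0.17, edgeR adjusted p = 2.78e-04) in young cross-progeny, or by 0.98, 1.00 and 0.97 without cross-1DOA replicate 1, cross-1DOA replicate 4 or self-1DOA replicate 2, and was at −0.20 in old (interaction 1.26, SE 0.23, edgeR adjusted p = 0.0163). *fat-5* was at −0.54 in old mothers, with an interaction that was not called.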

How the data were processed

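RNA was extracted from L4 larvae and sequenced from libraries that do not mark strand. According to the methods and labels, the authors checked reads with FastQC, trimmed them with Trimmomatic, aligned them with STAR and counted them per gene with HTSeq on the WS220 (ce10) genome, and deposited raw counts, 1 file per library. No reference of that build was used here, so gene order and names come from RefSeq (WBcel235) and no coordinates are given. RefSeq gave a gene for 2863 of the 3837 transcript-named entries.

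Counts of all 36 libraries of the parental experiment (9 groups of 4) entered a single edgeR 4.0.16 fit (R 4.3.3; TMM scaling, quasi-likelihood F-test), once its default filter had removed low entries, with Benjamini-Hochberg adjustment over 15306 entries. Entries were called at an adjusted p below 0.05 with a change of more than 1 on the log2 scale. CPM uses TMM-scaled totals except where the unscaled total is stated. DESeq2 1.42.0 was an alternative. The test was checked on simulated data. The labels name biological replicates without saying what was separate between them, so p-values measure the spread between these libraries. Intervals and floors cover counting error only, and a floor is 3 counts over a group.

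The comparison, the 31 gene lists and the genes looked at were chosen with earlier results of these data known. Genes named were up to 15 per direction with the smallest adjusted p among calls whose groups did not overlap, called members of the sex-related lists and at most 4 in any other, and some genes of sex determination and the transgene whatever their result. Transcript-named entries were counted and, but for those said to be singled out, not named. Alternatives were other scalings, filters and thresholds, fits of only the groups compared, a replicate block, fits without transcript-named entries and fits that left out each library, and, chosen after the data were seen, other reference groups.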

Additional observations from a re-analysis of the deposited data

Results flagged for a closer look

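In 102 sets of 4 libraries (51 named genes in cross-1DOA and self-1DOA), the gap between 1 library and the nearest other took up more of the group's range than Dixon's 95% limit for 4 values in 10 sets; chance alone gives about 1 in 20. In cross-1DOA these were *cgh-1* (0.869 of the range, replicate 4 low), *K01C8.1* (0.861, replicate 3 low), *mtl-2* (0.857, replicate 2 low), *lin-15A* (0.915, replicate 2 high) and *Y34F4.2* (0.888, replicate 2 high). In self-1DOA they were *F35H8.1* (0.866, replicate 3 high), *nlp-32* (0.983, replicate 2 high), *col-85* (0.912, replicate 2 high) and *col-2* and *col-50* (1 each, replicate 4 high), the last 4 at under 1 CPM in every self-1DOA library. None of these libraries overlapped with the other group except for *nlp-32*, where self-1DOA replicate 2 (0.736 CPM) was above cross-1DOA replicate 3 (0.705 CPM). For *K01C8.1*, *lin-15A*, *Y34F4.2*, *F35H8.1* and *col-2* this was fixed in advance, as they were picked among calls without overlap.

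The interaction term of crossing and mother age was called for 7 of the 51 genes, beside 0.581% of all entries. The 51 were picked largely by their young-mother difference, and the term reuses those libraries. The selection can therefore raise this count and the effects below. It was more positive in young mothers for *nlp-28* (6.07, SE 1.33, edgeR adjusted p = 0.0322), *cyp-34A7* (5.06, SE 1.17, edgeR adjusted p = 0.0347), *cyp-14A1* (1.89, SE 0.42, edgeR adjusted p = 0.0328), *Y37A1A.2* (1.39, SE 0.29, edgeR adjusted p = 0.0241) and *K01C8.1* (1.26, SE 0.23, edgeR adjusted p = 0.0163). It was more negative for *zig-3* (−1.97, SE 0.37, edgeR adjusted p = 0.0163) and *fat-7* (−1.59, SE 0.25, edgeR adjusted p = 0.00594). Of the 16 fits that left out 1 library, *nlp-28* was called in 7, *cyp-34A7* in 4, *cyp-14A1* in 6 and *Y37A1A.2* in 8, and the other 3 genes in all 16.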

How the results depend on the processing

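Of the 61 genes followed through up to 20 alternatives, 9 were called in each one that could be run: *lin-15A*, *lin-15B*, *srg-64*, *F35H8.1*, *F35H8.12*, *grl-30*, *T20D4.7*, *Y34F4.2* and *Y82E9BR.25*. For crossing in young mothers, 356 calls became 702 with no fold threshold and 201 at a mean of at least 50 counts, and 148 to 482 when 1 library was left out. With references chosen after the data were seen the count was 106 (F1-back), 760 (*set-2* 1DOA) and 42 (self-1DOA replicates 3 and 4 alone). In old mothers, 450 became 912 with no fold threshold, 207 at a mean of at least 50 counts and 306 to 575 with 1 library left out. The interaction count of 89 became 51 with no filter, 44 at a mean of at least 50 counts, 167 with only the groups compared, 246 by DESeq2 and 8 to 204 with 1 library left out. Replicate numbers were not taken to pair the samples, since the labels tie nothing to them and same-numbered libraries of cross-1DOA and self-1DOA correlated at 0.32, −0.03, 0.23 and 0.11, 1 of them under 0.1, although 3 of 4 were highest with their own number. The replicate block gave 590 calls in young mothers, 340 in old and 427 for the interaction. Of the genes followed, *cpr-5*, *kel-8* and *nlp-29* were not called with the block, and *cpr-5*, *fat-5*, *his-3*, *lys-5* and *cnc-4* were not with only the groups compared. Signs were reversed only with the added references: against F1-back for *col-2* (−0.50), *col-50* (−0.88), *col-51* (−0.40), *col-85* (−0.51), *F25H2.16* (−1.06), *F42G4.6* (−0.52), *msp-113* (0.37) and *mtl-2* (0.48), and against *set-2* 1DOA for *col-2* (−0.39), *col-50* (−0.019), *col-51* (−0.33), *col-85* (−0.52), *F42G4.6* (−0.69) and *math-22* (−0.36). The cause was not tested. Cross-1DOA replicate 3 was the shallowest of the 8 libraries, and the genes under 1 CPM rest on few reads there.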
